A study of Mus musculus with 6 samples.

Results

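The pyruvate dehydrogenase kinases Pdk1, Pdk2, Pdk3 and Pdk4, the phosphatases Pdp1 and Pdp2 and the phosphatase regulator Pdpr were examined in CD8+ T cells from mouse spleen. These 7 genes were found by symbol among 35458 gene identifiers. They were taken as a family because Pdk1 separated the groups in every library. The family was thus chosen by the FPKM of Pdk1 in these same groups, and those values are given as a description, with no test. RNA-seq libraries came from 3 control samples of genotype Cd4cre and 3 samples of genotype Cd4creGlut10fl/fl, called KO here. Both groups carry Cd4cre, a Cre recombinase driven by Cd4 sequences that is active in developing T cells before CD4+ and CD8+ cells part, and only the KO samples carry floxed alleles of the gene for Glut10, Slc2a10, whose product belongs to the facilitative sugar carriers. At issue is which transcripts of CD8+ T cells change in level once the carrier is deleted. Age, sex and the number of mice behind each library are not given in the labels, so a p-value here reflects how far the libraries of a group vary, and that variation may be technical.

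The pyruvate dehydrogenase complex turns pyruvate into acetyl-CoA in the mitochondrial matrix and so sets how much carbon from glucose enters the TCA cycle. The kinases phosphorylate and shut off its E1 alpha subunit, and the phosphatases remove the phosphate and switch it on again. In T cells this step is known as a branch point between lactate production and oxidation of pyruvate, and Pdk1 is a classical target of the hypoxia-inducible factor HIF.

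Values are FPKM, fragments per kilobase of exon and relative to the fragments of the library, which allows levels of different genes to be set side by side. The FPKM steps implied 11840640 to 15036282 fragments in the 3 controls and KO 2, but only 3420291 in KO 1 and 3004540 in KO 3. KO 1 and KO 3 also had the most genes at or above 1 FPKM, 18934 and 19268, where 12200 to 13713 were found in the other libraries. Slc2a10, the targeted gene, was listed at 0.0946, 0.0373 and 0.0373 FPKM in control 1, 2 and 3 (4, 2 and 2 fragments) and at 0 in all KO libraries, where 3 fragments would be 0.246, 0.0572 and 0.280 FPKM, so this depth cannot show its loss. All 14 T cell markers were detected in every library, with a geometric mean of 133, 44.4 and 35.2 FPKM across controls 1 to 3, against 127, 198 and 123 FPKM across KO 1 to 3. Geometric means of markers were taken over FPKM + 1, with the 1 then subtracted, which raises them where values are low. The 12 neutrophil markers had a geometric mean of 13.2, 306 and 524 FPKM for the controls, against 10.9, 2.89 and 18.9 FPKM for KO, and none of them was at 0 in any library. Their summed level ran from 444 to 29611 FPKM in the controls and from 75.2 to 715 FPKM in the KO libraries, with control 2 and 3 far above the others. The 11 macrophage and monocyte markers summed to between 2004 and 4672 FPKM in the controls and between 384 and 2040 FPKM in the KO libraries, with none at 0. Lyz2 alone gave 4208 of the 4672 FPKM in control 3 and 1590 of the 2040 FPKM in KO 3. Of the 11 markers, 5 had a higher and 6 a lower mean in KO. Their geometric mean was 26.9, 36.8 and 28.8 FPKM for controls 1 to 3, against 20.8, 5.14 and 41.8 FPKM for KO 1 to 3. The 8 B cell markers summed to between 71.9 and 249 FPKM and between 341 and 482 FPKM, also with none at 0. The erythroid markers summed to between 6.40 and 2217 FPKM and between 3.34 and 35.4 FPKM, with Alas2 and Hba-a2 among those at 0 in at least 1 library. The 4 CD4 lineage markers summed to between 15.7 and 31.3 FPKM and between 4.83 and 9.42 FPKM, with Cd40lg at 0 in at least 1 KO library. In bulk RNA, fewer cells of a type and less RNA per cell cannot be told apart.

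The groups also differed in sex-linked genes. Xist, the RNA that silences an X chromosome in female cells, gave 19.8, 22.0 and 40.5 FPKM across controls 1 to 3, against 0.473, 0.262 and 0.0928 FPKM across KO 1 to 3. The Y-linked gene Ddx3y gave 1.82, 0.166 and 0 FPKM across controls 1 to 3, against 29.5, 20.6 and 19.7 FPKM across KO 1 to 3. The control libraries therefore carried the RNA pattern of female cells, with a low Y-linked level in control 1, and the KO libraries that of male cells. Sex and genotype cannot be told apart in any comparison of these groups.

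Pdk1 (ENSMUSG00000006494, chromosome 2) encodes the kinase by which the family was chosen. It gave 5.44, 6.13 and 5.76 FPKM across controls 1 to 3, against 26.8, 31.8 and 22.0 FPKM across KO 1 to 3. The controls lay within a narrow band, and the lowest KO library was 3.6 times the highest control. The group means were 5.78 ± 0.345 and 26.9 ± 4.88 FPKM (SD, n = 3 each), a ratio of 4.65, and the difference on the log2(FPKM + 1) scale was 2.03 (SE 0.23). In fragments this was 501, 716 and 674 for the controls and 714, 3632 and 515 for KO 1 to 3, so counting error was small in all libraries. Of the genes with at least 1 FPKM, 40.9%, 45.4% and 43.3% lay below Pdk1 in controls 1 to 3, against 85.6%, 83.7% and 82.8% in KO 1 to 3. A gene of middling level in the controls was thus among the more abundant transcripts in every KO library. No 50-base stretch of the Pdk1 transcripts was shared with a transcript of another gene, and no other annotated gene overlaps Pdk1.

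**Figure D1:**
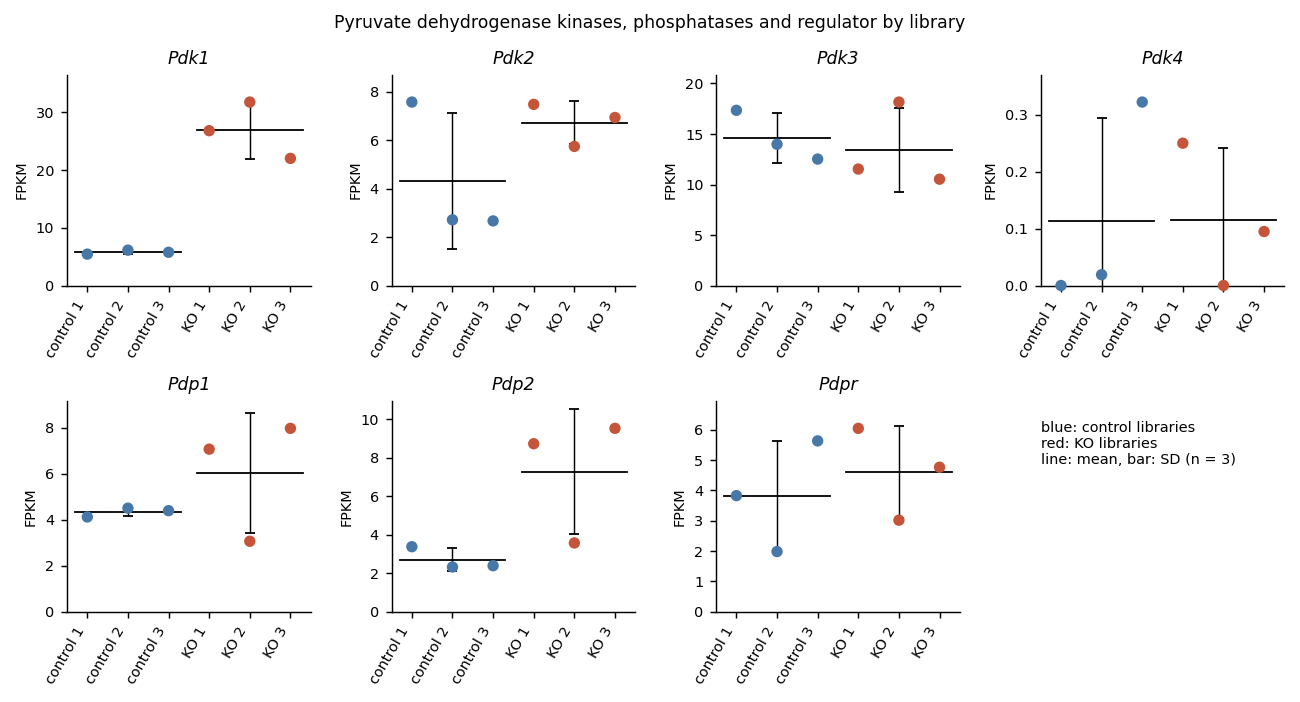
FPKM of each of the 7 genes (y axis, starting at 0) in the 3 control and 3 KO libraries (x axis). Lines are group means and bars SD (n = 3); Pdk1 lies at 5.44 to 6.13 in the controls and at 22.0 to 31.8 in the KO libraries, while Pdk2, Pdk3, Pdk4, Pdp1 and Pdpr overlap between the groups.

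Pdk2 (ENSMUSG00000038967, chromosome 11), the most widely expressed kinase of the family, gave 7.58, 2.72 and 2.67 FPKM across controls 1 to 3, against 7.49, 5.75 and 6.94 FPKM across KO 1 to 3. Control 1 was as high as the highest KO library, and control 2 and 3 were the low ones. The group means were 4.32 ± 2.82 and 6.73 ± 0.889 FPKM (SD, n = 3 each). Their log2 difference was 0.65 (SE 0.41) and became -0.16 once control 2 and 3 were left out. The libraries with low Pdk2 were those with low T cell markers and high neutrophil markers, and the part of these in the result was not tested.

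Pdk3 (ENSMUSG00000035232, chromosome X), a kinase with a more restricted tissue distribution, was the most abundant kinase in the controls. It gave 17.3, 14 and 12.5 FPKM across controls 1 to 3, against 11.5, 18.2 and 10.5 FPKM across KO 1 to 3. The highest value was in KO 2 and the lowest were in KO 1 and KO 3, the libraries of low depth, so the groups overlapped. The log2 difference was -0.14 (SE 0.28), and 0.31 without KO 1 and 3.

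Pdk4 (ENSMUSG00000019577, chromosome 6), the kinase that fasting and fatty acids induce in muscle and liver, was close to absent. It measured 0, 0.0190 and 0.322 FPKM in control 1, 2 and 3, from 0, 1 and 17 fragments, and 0.250, 0 and 0.0948 FPKM in KO 1, 2 and 3, from 3, 0 and 1 fragments. Only control 3 was clearly above the level of 3 fragments, which was 0.0568 FPKM in that library, and Pdk4 did not pass the filter on low values. A share of 1.4% of its 50-base stretches also occurs in transcripts of other genes.

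The makeup of the kinase pool was read as each gene's share of the summed FPKM of the 4 kinases, a ratio within a library that a scaling factor per library cannot move. Pdk1 made up 17.9%, 26.8% and 27.1% of the pool across controls 1 to 3, against 58.2%, 57.1% and 55.6% across KO 1 to 3. Pdk3 made up 57.1%, 61.2% and 58.8% across controls 1 to 3, against 25.0%, 32.6% and 26.6% across KO 1 to 3. Pdk3 thus led in every control and Pdk1 in every KO library, while the FPKM of Pdk3 itself overlapped between the groups. The ratio of Pdk1 to Pdk3 was 0.404 ± 0.0791 in the controls and 2.06 ± 0.290 in the KO libraries (SD, n = 3 each). Pdk2 took 16.5% ± 7.37 and 14.7% ± 3.85 of the pool. The summed kinase level was 24.8 ± 4.86 FPKM in the controls and 47.1 ± 8.10 FPKM in the KO libraries, whereas the sum without Pdk1 was 19.1 ± 5.12 and 20.2 ± 3.28 FPKM (SD, n = 3 each). The higher kinase sum of the KO libraries was therefore carried by Pdk1. As Pdk1 was chosen for separating the groups, the shares, the ratio to Pdk3 and the sum that hold it are a description, with no test.

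**Figure D2:**
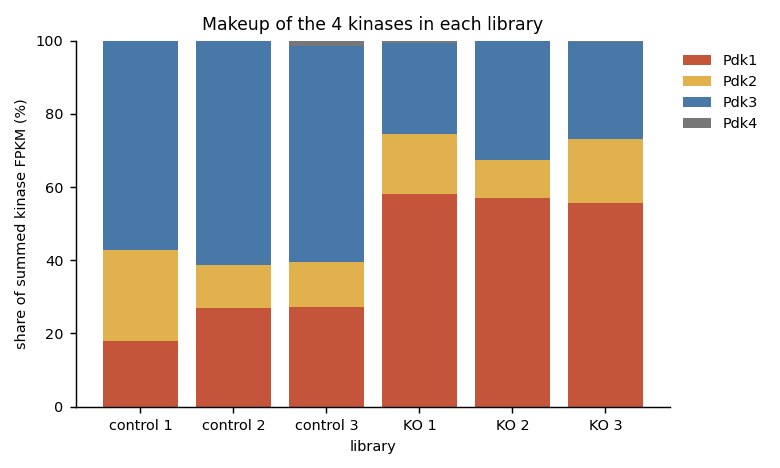
Share of each kinase in the summed FPKM of Pdk1, Pdk2, Pdk3 and Pdk4 (y axis, percent) in each library (x axis), as stacked bars. Pdk1 takes 17.9% to 27.1% in the controls and 55.6% to 58.2% in the KO libraries; since the shares add up to the whole pool, the other shares are lower where that of Pdk1 is higher.

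Pdp2 (ENSMUSG00000048371, chromosome 8) and Pdp1 (ENSMUSG00000049225, chromosome 4), the catalytic phosphatases, were highest in the same 2 libraries. Pdp2 gave 3.38, 2.33 and 2.40 FPKM across controls 1 to 3, against 8.73, 3.58 and 9.53 FPKM across KO 1 to 3. Every KO library was above every control, but KO 2 exceeded control 1 only narrowly. The log2 difference of Pdp2 was 1.08 (SE 0.40) and became 0.32 once KO 1 and 3 were left out. Pdp1, the calcium-stimulated phosphatase, gave 4.12, 4.51 and 4.40 FPKM across controls 1 to 3, against 7.07, 3.07 and 7.98 FPKM across KO 1 to 3. Here KO 2 was the lowest of all libraries and KO 1 and KO 3 were the highest. The log2 difference of Pdp1 was 0.32 (SE 0.37) and became -0.39 once KO 1 and 3 were left out. KO 1 and KO 3 were also the libraries of lowest depth with the most genes detected, and the part of this in the phosphatase values was not tested.

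Pdpr (ENSMUSG00000033624, chromosome 8), the regulatory subunit that lowers the activity of Pdp1, gave 3.83, 1.99 and 5.63 FPKM across controls 1 to 3, against 6.05, 3.02 and 4.77 FPKM across KO 1 to 3. Both groups spanned most of the range, and the log2 difference was 0.26 (SE 0.41). Exons of Pdpr overlap 9430091E24Rik on the other strand, with 1.75% of the 50-base stretches of Pdpr shared, and the strand setting of the counting is not given in the sources used here, so its values are uncertain. The ratio of summed kinases to summed Pdp1 and Pdp2 was 4.05, 3.34 and 3.13 across controls 1 to 3, against 2.92, 8.38 and 2.26 across KO 1 to 3. Kinase excess over phosphatase was therefore highest in KO 2 and lowest in KO 3, with the controls between them.

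Of the 6 members that passed the filter, 2, Pdk1 and Pdp2, had every KO library above every control, a pattern found in 6.70% of the 13956 genes tested. As Pdk1 chose the family, nothing is read from that count. Apart from Pdk1, 0 of 5 tested members passed limma over all genes, with adjusted p from 0.417 to 0.814, and 1, Pdp2, had an unadjusted p under 0.05. The share of all genes past limma's adjusted p of 0.05 was 0%, with 1646 genes at an unadjusted p under 0.05, and limma-voom on the implied fragments also called 0. The smallest limma adjusted p of all genes was 0.151, for Xist, and that of Ddx3y was 0.310. A gene that did not pass therefore cannot be read as unchanged. The number of genes past limma was 363 without control 1, of which 146 were higher and 217 lower in KO. Without KO 2 it was 1821, of which 1687 were higher and 134 lower. Without KO 2 the limma adjusted p of Pdp2 was 0.017, and leaving out any other single library did not bring Pdk2, Pdk3, Pdp1, Pdp2 or Pdpr past the threshold. All tested genes had a median log2 difference of 0.10, and -0.12 after quantile normalization, under which the values of Pdk1, Pdk2, Pdk3, Pdp1, Pdp2 and Pdpr were 1.82, 0.355, -0.35, 0.06, 0.82 and -0.035. The sign of Pdpr thus flipped with the scaling, and Pdp1 came close to 0.

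**Figure D3:**
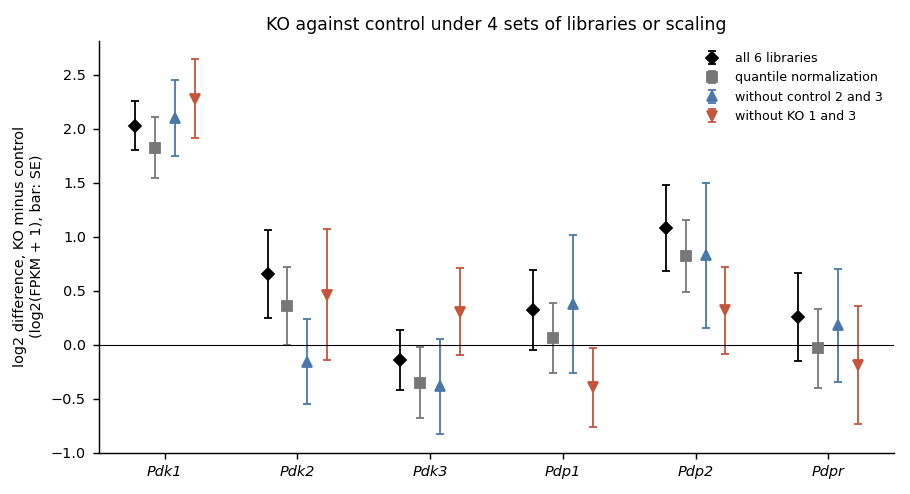
Log2 difference of KO minus control on the log2(FPKM + 1) scale (y axis, bars are SE) for the 6 members that passed the filter (x axis), with all libraries, after quantile normalization, without control 2 and 3 and without KO 1 and 3. Pdk1 stays between 1.82 and 2.28, while Pdk2, Pdk3, Pdp1 and Pdpr lie on both sides of 0; a group of 1 library is assumed to vary like the other group.

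Control 1 and KO 2 were both deep, rich in T cell markers and low in neutrophil markers, and a direct comparison of this pair was added after the data were seen. The pair still differed in makeup. Geometric means in control 1 and KO 2 were 133 and 198 FPKM for T cell markers and 13.2 and 2.89 FPKM for neutrophil markers. For macrophage and monocyte markers they were 26.9 and 5.14 FPKM. The part of this in the ratios was not tested. The comparison is of 2 libraries, not the genotypes, and its exact 95% intervals cover counting error only. Pdk1, whose values chose the family, was 5.85 times as high in KO 2 as in control 1 (interval 5.32 to 6.43), given as a description. Pdk3 had a ratio of 1.05 (0.933 to 1.18) and Pdp2 of 1.06 (0.887 to 1.26), both within counting error of equal. Pdk2, Pdp1 and Pdpr were lower in KO 2, with ratios of 0.758 (0.639 to 0.899), 0.744 (0.612 to 0.905) and 0.789 (0.653 to 0.953).

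The Pdk1 level was also set against T cell RNA, as FPKM in percent of the geometric mean of the 14 T cell markers in the same library, a measure likewise added after the data were seen. Pdk1 stood at 4.09%, 13.8% and 16.4% across controls 1 to 3, against 21%, 16% and 18% across KO 1 to 3. On this scale the groups overlapped, since control 3 was slightly above KO 2, and control 1 lay far below all others. The group means were 11.4% ± 6.47 and 18.4% ± 2.52 (SD, n = 3 each). Pdk3 stood at 13.0%, 31.5% and 35.5% across controls 1 to 3, against 9.04%, 9.17% and 8.59% across KO 1 to 3, all below the controls. All 14 markers had a higher mean in KO, so this scale tends to lower the KO values of any gene. The share of all genes below every control on it was not counted. Pdk2, Pdp1, Pdp2 and Pdpr overlapped on this scale. The log2 ratio of group means went from 2.22 to 0.685 for Pdk1 and from -0.125 to -1.58 for Pdk3. It went from 0.64 to -0.43 for Pdk2, from 0.48 to -0.92 for Pdp1, from 0.27 to -1.20 for Pdpr and from 1.43 to 0.17 for Pdp2. Which cells the Pdk1 and Pdk3 RNA of control 2 and 3 came from was not tested. Without control 2 and 3 the log2 difference of Pdk1 was 2.10, and without KO 1 and 3 it was 2.28.

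**Figure D4:**
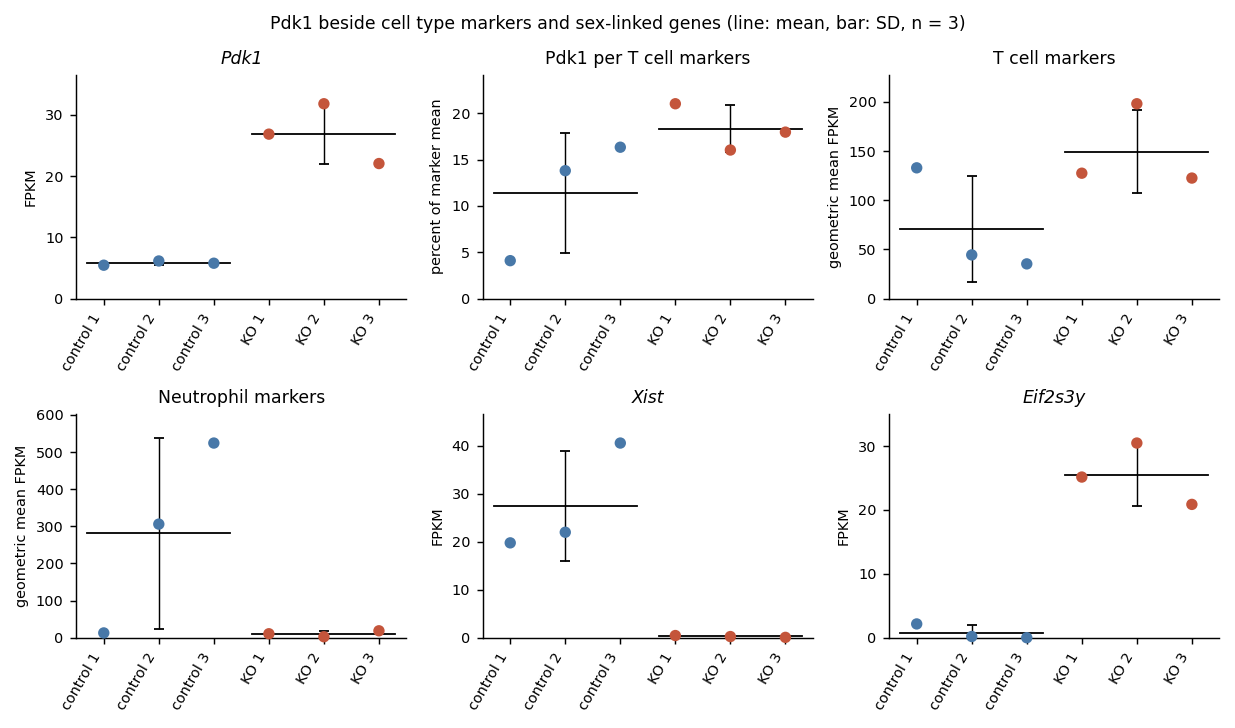
Pdk1 in FPKM and in percent of the T cell marker mean, the geometric mean FPKM of 14 T cell and 12 neutrophil markers, and the FPKM of Xist and Eif2s3y (y axes, starting at 0) by library (x axis), with group means and SD (n = 3). Pdk1 in FPKM separates the groups, as Xist and Eif2s3y do, while Pdk1 per T cell marker overlaps between them.

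The gap of Pdk1 is a description, since Pdk1 was chosen for separating the groups, and gaps were counted for genes higher in KO. Among all tested genes, Ddx3y, Eif2s3y and Gm29650 had a larger gap than Pdk1 between the lowest KO and the highest control library on the log2(FPKM + 1) scale, and all 3 are annotated on the Y chromosome. The gap was 1.69 for Pdk1, 2.87 for Ddx3y, 2.79 for Eif2s3y and 2.40 for Gm29650. By size of the log2 difference Pdk1 stood out less. Of the 13956 tested genes, 763, Pdk1 included, had a difference at least as large as its 2.03. The 5 protein-coding genes whose values followed Pdk1 most closely over the 6 libraries, out of 6115 compared, were Kdm5d, Uty, Hist1h3h, Eif2s3y and Hist1h4d, with Pearson r from 0.955 to 0.989. Values of all genes carry the same split by group and the same differences in depth between libraries, and these r are a description only. Kdm5d, a Y-linked histone demethylase, gave 0.223, 0.00439 and 0 FPKM across controls 1 to 3, against 2.80, 3.84 and 2.59 FPKM across KO 1 to 3. Like Pdk1, it was highest in KO 2 and lowest of the KO libraries in KO 3. Eif2s3y, a Y-linked translation initiation factor, gave 2.17, 0.208 and 0.0160 FPKM across controls 1 to 3, against 25.2, 30.5 and 20.9 FPKM across KO 1 to 3. Hist1h4d, a replication-dependent histone gene on chromosome 13, gave 1.5, 1.02 and 1.52 FPKM across controls 1 to 3, against 5.95, 4.85 and 3.39 FPKM across KO 1 to 3. Ddx3y, Xist and Gm29650 were picked with their values in view.

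The complex that the kinases act on was read from a list of its subunits. Of 5 tested subunits of the pyruvate dehydrogenase complex, 4 had lower and 1 higher estimates, 0 passed limma over all genes in either direction, 0 had an unadjusted p under 0.05, and all 5 overlapped between the groups. Over all 13956 tested genes, 0% passed, 1646 had an unadjusted p under 0.05, and 6.70% had every KO library above and 9.44% below every control, so counts of 0 among 5 genes do not set the subunits apart. Pdhb, the E1 beta subunit, gave 77.8, 89.6 and 65.7 FPKM across controls 1 to 3, against 62.4, 82.7 and 63.2 FPKM across KO 1 to 3. Dld, the dihydrolipoamide dehydrogenase shared with other complexes, measured 32.9 ± 5.58 and 22.4 ± 6.81 FPKM (SD, n = 3 each), a log2 difference of -0.56 that became -0.12 once KO 1 and 3 were left out. The median of the subunits was -0.16, beside 0.10 for all tested genes. Pdha1, the X-linked E1 alpha subunit that the kinases phosphorylate, gave 28.6, 25.2 and 25.1 FPKM across controls 1 to 3, against 25.6, 33.6 and 13.1 FPKM across KO 1 to 3, with KO 2 highest and KO 3 lowest. The testis form Pdha2 was listed at 0 in all controls and did not pass the filter.

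The branched-chain ketoacid dehydrogenase is regulated in the same manner by its own kinase Bckdk and phosphatase Ppm1k. Of its 5 genes, 3 had higher and 2 lower estimates, 0 passed limma over all genes, 1 had an unadjusted p under 0.05, and the median was 0.02. Ppm1k gave 3.24, 2.43 and 2.81 FPKM across controls 1 to 3, against 14.5, 3.34 and 16 FPKM across KO 1 to 3. As with Pdp1 and Pdp2, the high values were those of KO 1 and KO 3. Its log2 difference was 1.45, and 0.19 without KO 1 and 3. Ppm1k passed limma only where KO 2 was left out, a setting under which 1687 genes passed as higher and 134 as lower. Bckdk measured 11.5 ± 2.79 and 11.7 ± 2.81 FPKM (SD, n = 3 each), and was chosen after its values were seen. Of 14 genes for attaching the lipoyl group that these complexes need, 7 had higher and 7 lower estimates, 0 passed limma and 0 had an unadjusted p under 0.05, with a median of 0.06. Isca1 and Isca2, iron-sulphur assembly factors, had every KO library below every control, at 13.4 ± 2.79 against 9.23 ± 1.82 FPKM and 20.4 ± 1.30 against 15.7 ± 1.65 FPKM (SD, n = 3 each). After quantile normalization, which moved the median of all genes to -0.12, the medians of these 2 lists were -0.21 and -0.26. Over all 13956 tested genes, 7941 had higher and 6015 lower estimates and 1646 had an unadjusted p under 0.05. Every KO library was above every control for 6.70% of them and below for 9.44%.

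Of 12 tested genes for other fates and transport of pyruvate, 9 had lower and 3 higher estimates, 0 passed limma and 2 had an unadjusted p under 0.05, with a median of -0.33. Over all 13956 tested genes, 6015 had lower and 7941 higher estimates and 1646 had an unadjusted p under 0.05, with a median of 0.10. Every KO library was below every control for 9.44% of them. Slc16a3, a lactate exporter, gave 8.04, 33.7 and 41.5 FPKM across controls 1 to 3, against 4.18, 7.89 and 4.13 FPKM across KO 1 to 3. Control 2 and 3 stood out, as they did for neutrophil markers, and control 1 was just above KO 2. Its log2 difference was -1.94, and -0.55 without control 2 and 3. Gpt2, which converts pyruvate to alanine, measured 2.78 ± 1.60 and 0.562 ± 0.114 FPKM (SD, n = 3 each), a log2 difference of -1.18 and -0.39 without control 2 and 3. Me1, the cytosolic malic enzyme that forms pyruvate, gave 2.66, 2.99 and 2.73 FPKM across controls 1 to 3, against 1.06, 0.230 and 2.42 FPKM across KO 1 to 3. The carriers Mpc1 and Mpc2, which bring pyruvate into mitochondria, measured 3.78 ± 1.58 and 2.58 ± 0.671 FPKM and 6.18 ± 1.49 and 4.57 ± 0.918 FPKM (SD, n = 3 each), with overlapping groups, and were picked with their values in view. Among 10 genes that handle acetyl-CoA and citrate, 5 had higher and 5 lower estimates, 0 passed limma and 1 had an unadjusted p under 0.05, with a median of -0.08. Crat, a carnitine acetyltransferase that buffers acetyl-CoA, gave 4.56, 9.02 and 10.8 FPKM across controls 1 to 3, against 2.82, 2.02 and 2.97 FPKM across KO 1 to 3, a log2 difference of -1.28, and -0.64 without control 2 and 3. Slc25a1, the citrate carrier, measured 26.3 ± 4.12 and 19.1 ± 3.40 FPKM (SD, n = 3 each), with every KO library below every control and a log2 difference of -0.18 without KO 1 and 3.

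Regulators reported to act on the transcription of the kinases were read next. Of 12 tested, 7 had lower and 5 higher estimates, 0 passed limma and 3 had an unadjusted p under 0.05, with a median of -0.12. Over all 13956 tested genes, 6015 had lower and 7941 higher estimates and 1646 had an unadjusted p under 0.05, with a median of 0.10. Foxo1, a transcription factor of quiescent lymphocytes, gave 12.7, 3.31 and 3.72 FPKM across controls 1 to 3, against 16.9, 13.6 and 13.9 FPKM across KO 1 to 3. As for Pdk2, control 1 was close to the KO libraries, and the log2 difference of 1.26 was 0.20 without control 2 and 3. Ppard, a nuclear receptor for fatty acids, gave 11.7, 8.12 and 10.7 FPKM across controls 1 to 3, against 7.20, 5.84 and 3.52 FPKM across KO 1 to 3, a log2 difference of -0.81, and -1.01 without control 2 and 3. Hif1a, the oxygen-regulated subunit of HIF, gave 22.5, 53.6 and 35.5 FPKM across controls 1 to 3, against 13.5, 27.7 and 8.69 FPKM across KO 1 to 3 and was chosen after its values were seen. Its groups overlapped, with a log2 difference of -1.18 that became -0.33 once KO 1 and 3 were left out.

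Of 23 tested HIF targets and oxygen sensors other than Pdk1, 19 had lower and 4 higher estimates. No gene of this list passed limma, 6 had an unadjusted p under 0.05, 6 had every KO library below every control and 0 above, and the median was -0.48. The values over all tested genes were 1646 of 13956 with an unadjusted p under 0.05, 9.44% below, 6.70% above and a median of 0.10. Egln3, a prolyl hydroxylase that marks HIF for degradation, gave 5.17, 26.2 and 30.0 FPKM across controls 1 to 3, against 4.17, 4.63 and 2.13 FPKM across KO 1 to 3. Ero1a, an oxidase of the endoplasmic reticulum, gave 12.5, 80.1 and 89.6 FPKM across controls 1 to 3, against 6.16, 11.3 and 6.26 FPKM across KO 1 to 3. Bnip3, a mitophagy receptor, gave 2.01, 9.05 and 11.1 FPKM for the controls, against 1.03, 1.80 and 1.91 FPKM for KO. In all 3 genes control 2 and 3 were the high libraries, and their log2 differences of -1.95, -2.43 and -1.49 were -0.46, -0.65 and -0.24 without control 2 and 3. Bhlhe40, a transcriptional repressor, gave 32.9, 42.9 and 41.1 FPKM across controls 1 to 3, against 20.7, 25.2 and 9.34 FPKM across KO 1 to 3, with a log2 difference of -1.14, and -0.91 without control 2 and 3. The list median without control 2 and 3 was -0.21. The list mixes HIF targets with oxygen sensors, and the part of HIF in the Pdk1 level was not tested.

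**Figure D5:**
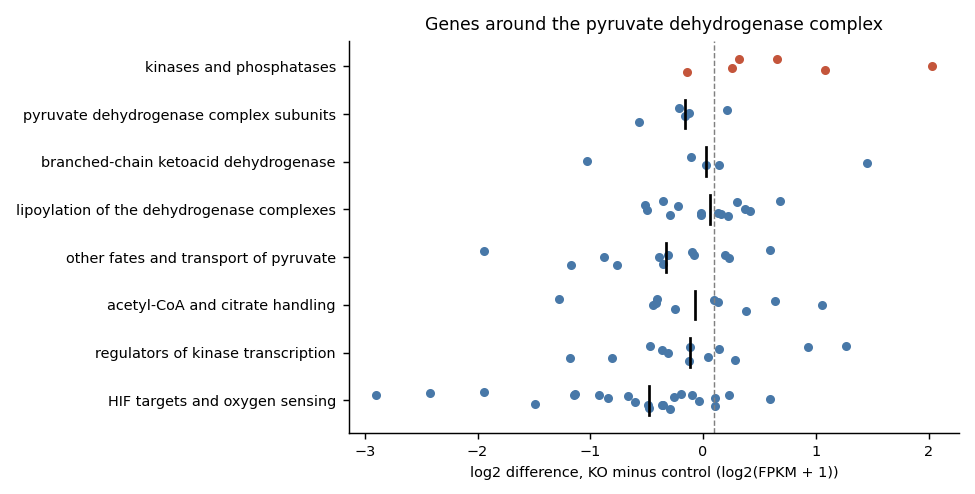
Log2 difference of KO minus control (x axis, log2(FPKM + 1) scale) for each tested gene of the kinases and phosphatases and of 7 surrounding gene lists (y axis); black lines are list medians and the dashed line is the median of all tested genes, 0.10. Pdk1, at 2.03, is the rightmost point, and the HIF list has the lowest median, -0.48.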

How the data were processed

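RNA-seq values of 6 libraries were used as deposited. Per the labels' protocols, frozen cells were taken up in Trizol and an NEBNext Ultra kit was used to build the libraries. The submitters' processing notes name HISAT2 2, Bowtie2 2.2.3, HTSeq 0.6.0 and mm8 without saying what each did. How FPKM were computed, the strand setting and the annotation are not given in the sources used here. Deposited units are FPKM, judged from the numbers themselves. Symbols, chromosomes and exon lengths came from GENCODE M21 (35358 identifiers matched); as the builds differ, no positions are given.

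FPKM times exon length fell on whole fragments (92.1% to 93.4% of values under 200 fragments within 0.02 of a whole number), which gave depths and implied fragments; floors are 3 fragments and cover counting error only. The 13956 genes that reached 1 FPKM in 3 or more libraries were tested as log2(FPKM + 1), which understates changes of low genes, with limma 3.58.1 in R 4.3.3 (trend, two-sided, Benjamini-Hochberg at 0.05). Tested on simulated data, the fit missed nearly all of the smaller changes put in, found most of the larger ones, and made a higher share of false calls than its threshold allows. Apart from these changes, the simulated libraries shared the same mean profile and spread. Differences in cell makeup within a group were not simulated, so the outcome may not carry over to the real libraries. Exact permutation of 3 against 3 libraries cannot go below 0.1, so none was used.

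The members, the 7 pathway lists (93 entries, all found, 1 by synonym) and the 6 marker lists (57 of 58 found) were chosen with earlier results of these data known. Named genes were the members, per list up to 4 genes with the largest difference among those whose groups did not overlap, or else 2 by smallest p, the 5 genes most like Pdk1 (protein-coding, range of at least 1 in log2), and Slc2a10; not all are reported. Shared 50-base stretches were counted over GENCODE transcripts. Alternatives were a pseudocount of 0.1, no filter, quantile normalization, a replicate block, limma-voom on implied fragments, protein-coding genes only and libraries left out.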

Additional observations from a re-analysis of the deposited data

How the results depend on the processing

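Pdk1 was higher in KO under all 14 alternatives, with a log2 difference of 1.82 after quantile normalization, 2.27 with limma-voom on implied fragments, 2.28 without KO 1 and 3 and 1.90 to 2.16 with 1 library left out. As Pdk1 was chosen for separating the groups, leaving out libraries or changing the pseudocount or filter could not turn its sign. Its values and its share of the kinase pool are a description. The excess of Pdk1 in the kinase pool, 33.0 percentage points, was 39.1 without control 2 and 3 and 30.0 to 34.6 with 1 library left out. The number of genes past limma was 0 with all libraries and between 0 and 1821 with 1 left out. It was 363 without control 1 (146 higher, 217 lower), 1821 without KO 2 (1687 higher, 134 lower) and 0 otherwise. The cause was not tested. Of the pathway lists, Slc16a3, Vegfa, Bnip3, Egln3 and Ero1a (lower) and Acss1 and Foxo1 (higher) passed without control 1 and Ppm1k (higher) without KO 2. Whether replicate numbers pair the samples cannot be told from these values. Same-numbered deviations correlated at 0.112, 0.020 and 0.018, and unlike-numbered ones at -0.207 to 0.139. The replicate block gave 0 genes and a Pdk1 difference of 2.03. Over the 14 alternatives Pdp2 was always higher (0.32 to 1.46), while Pdk2 (-0.16 to 1.06), Pdk3 (-0.39 to 0.31), Pdp1 (-0.39 to 0.67) and Pdpr (-0.19 to 0.53) took both signs, the cause of which was not tested. The sign turned for Pdk2 without control 2 and 3 (-0.16), for Pdk3 with limma-voom (0.052), without KO 3 (0.001) and without KO 1 and 3 (0.31), for Pdp1 without KO 1 and 3 (-0.39), and for Pdpr after quantile normalization (-0.035), without control 2 (-0.05) and without KO 1 and 3 (-0.19). Per T cell marker, an alternative added after seeing the data, the log2 ratio of means of Pdk2 (-0.43), Pdp1 (-0.92) and Pdpr (-1.20) also turned negative. On that scale the ratio of Pdk1 fell from 2.22 to 0.685, with overlapping groups, and that of Pdk3 went from -0.125 to -1.58. With 1 library left out, Pdk3 ran from -0.37 to 0.001. Depth limits Slc2a10 and Pdk4.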
